A study of Homo sapiens with 4 samples.

Results

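The 42 genes described here encode the machinery that separates chromosomes and divides the cell. They were chosen by name, for function, out of 58174 genes with an identifier in the deposited table, and lie on 17 chromosomes. They fall into 8 role groups, namely the mitotic kinases with the CDC25 phosphatases (AURKA, PLK1, TTK, BUB1, CDC25B and CDC25C), the spindle checkpoint (BUB1B, BUB3, MAD2L1, CDC20 and KNTC1), the chromosomal passenger complex (AURKB, INCENP, BIRC5 and CDCA8), 8 kinesins (KIF2C, KIF4A, KIF11, KIF14, KIF18A, KIF20A, KIF20B and KIF23), the kinetochore (CENPE, CENPF, CENPN, NDC80, NUF2, SPC24 and SPC25), spindle and cytokinesis proteins (NUSAP1, TPX2, PRC1, ECT2, ANLN, HMMR and ASPM), anaphase and mitotic exit factors (PTTG1, ESPL1 and UBE2C), and a chromosome group (TOP2A and MKI67).

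In a dividing cell, kinases such as Aurora A and PLK1 drive the assembly of a bipolar spindle from microtubules, on which kinesin motors move and slide. Kinetochores attach each chromosome to the spindle, and the checkpoint holds CDC20 back until every kinetochore is attached. The anaphase-promoting complex then marks securin and cyclin B for destruction, separase cuts the cohesin that ties sister chromatids together, and the central spindle and contractile ring split the cell. Most of these genes are transcribed in G2 and mitosis, so that a bulk RNA sample carries more of their RNA when more of its cells are in those phases. In bulk samples, fewer cells in a phase and less RNA per cell cannot be told apart.

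The samples came from 2 human pancreatic cancer cell lines, SW1990 and PANC-1, grown in a different medium each, both at passage 14-16 with 10% FBS. Cells of each line were left unirradiated or received 10 Gy of X-rays, which gave 4 groups of 1 library. The study asked how the cells that repopulate a tumor survive radiotherapy. RNA of irradiated cells was sequenced to learn why dying cells at first slowed the proliferation of cells cultured with them. The time between radiation and RNA extraction is not given in the sources used here, and line and medium cannot be told apart. The libraries held 17851815 (SW1990 unirradiated), 18305682 (SW1990 irradiated), 23323266 (PANC-1 unirradiated) and 20026595 (PANC-1 irradiated) counts on genes.

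The labelled cell type was checked against marker genes. Epithelial keratins were abundant in all 4 libraries, with KRT8 at 786 to 1888 FPKM and KRT18 at 468 to 1062 FPKM (FPKM, fragments scaled by transcript length and by the depth of the library). KRT7 was low, at 5.02 to 6.35 FPKM. EPCAM was at 217 and 218 FPKM in SW1990 cells but at 2.28 and 2.81 FPKM in PANC-1 cells, and CDH1, the epithelial cadherin, was at 140 and 239 against 0.673 and 1.21 FPKM. VIM, a mesenchymal filament gene, went the other way, at 0.626 and 0 FPKM in SW1990 cells and at 1627 and 1650 FPKM in PANC-1 cells. Defining markers of leukocytes (PTPRC), endothelium (PECAM1), islets (INS) and acini (CPA1) were at or near 0 in every library, PRSS1 and FN1 stayed below 1 FPKM, and COL1A1 was between 1.4 and 11 FPKM.

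Many promoters of genes expressed in G2 and mitosis are known to hold the cell cycle genes homology region, whose core letters are TTTGAA, together with CCAAT boxes. RefSeq promoter windows on GRCh38.p14, from 250 bases before to 50 bases after the start site, were matched by symbol for 35 of the 42 genes (not for AURKA, TTK, BUB3, KNTC1, BIRC5, TPX2 and UBE2C). TTTGAA on either strand (TTTGAA or TTCAAA) was in the windows of 27 of these 35 genes (77.1%), against 18.2% of all 27305 genes in the table. CCAAT on either strand (CCAAT or ATTGG) was in 29 of 35 (82.9%), against 39.7%. Both were in 23 of 35 (65.7%), against 7.26%, and in 24.3% of 111 other genes of mitosis. The last A of TTTGAA can also be the first A of ATTGG, as in the CDCA8 sequence. A match of letters is a description and not a measured binding site. The sequences below show the letters where they lie upstream of the RefSeq start site in genes whose values recur in the comparisons, with TTTGAA or TTCAAA in capitals, each written 5′ to 3′ on the gene's own strand. By the gene spans of the deposited table, those of CDCA8, PRC1, ANLN and HMMR lie within the gene.
CDCA8, passenger complex, chr1:37692481-37692510, plus strand: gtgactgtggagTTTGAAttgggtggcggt
CDC20, checkpoint target, chr1:43358904-43358933, plus strand: cgacggttggatTTTGAAggagccaatagg
KIF4A, kinesin, chrX:70290058-70290087, plus strand: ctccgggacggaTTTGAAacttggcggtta
PRC1, central spindle, chr15:90994538-90994567, minus strand: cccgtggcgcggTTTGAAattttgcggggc
ANLN, contractile ring, chr7:36389824-36389853, plus strand: tcggcgctgaaaTTCAAAtttgaacggctg
HMMR, spindle assembly, chr5:163460592-163460621, plus strand: aatgtggggagaTTTGAAtttgaaaccggt
ESPL1, separase, chr12:53268256-53268285, plus strand: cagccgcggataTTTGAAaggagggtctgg
MKI67, Ki-67, chr10:128126435-128126464, minus strand: tcttcgttttcgTTTGAAttgggcgggcgc
TOP2A, topoisomerase, chr17:40418030-40418059, minus strand: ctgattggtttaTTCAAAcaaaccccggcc

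In ANLN and HMMR a second copy of the letters follows the first directly and is left in lower case. Of the 35 genes, BUB1, CDC25B, AURKB, KIF2C, KIF20A, CENPE, SPC24 and PTTG1 held no TTTGAA in these windows.

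All 42 genes were expressed in all 4 libraries. The lowest value was 6.79 FPKM, for MAD2L1 in unirradiated PANC-1 cells, and the highest was 228 FPKM, for TPX2 in the same library. The median over the 42 genes was 32.5 FPKM without and 34.0 FPKM with radiation in SW1990 cells, and 39.0 and 42.5 FPKM in PANC-1 cells. Between 84.9% and 89.1% of the genes expressed at 1 FPKM or more lay below that median. Together the 42 genes took 0.621% and 0.658% of the gene counts in SW1990 cells and 0.814% and 0.881% in PANC-1 cells. The share was thus higher in PANC-1 cells at either dose, and in each line it was higher in the irradiated library, with 1 library behind each value.

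By mean FPKM over the libraries, TPX2, PTTG1 and CDC20 were the most abundant and KIF14, MAD2L1 and SPC25 the least. CDC20 (chr1:43358955-43363203), the activator of the anaphase-promoting complex that the checkpoint restrains, was at 143, 164, 106 and 144 FPKM in the SW1990 library without and with 10 Gy and then the PANC-1 library without and with 10 Gy, the order used for sets of 4 values from here on. PTTG1 (chr5:160421822-160428744), which encodes securin, was at 88.8, 115, 164 and 213 FPKM. At the low end, KIF14 (chr1:200551497-200620734), a kinesin of cytokinesis, was at 7.10, 7.17, 14.2 and 14.1 FPKM, and the subunit gene SPC25 was at 11.8, 10.3, 16.0 and 14.2 FPKM.

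**Figure D1:**
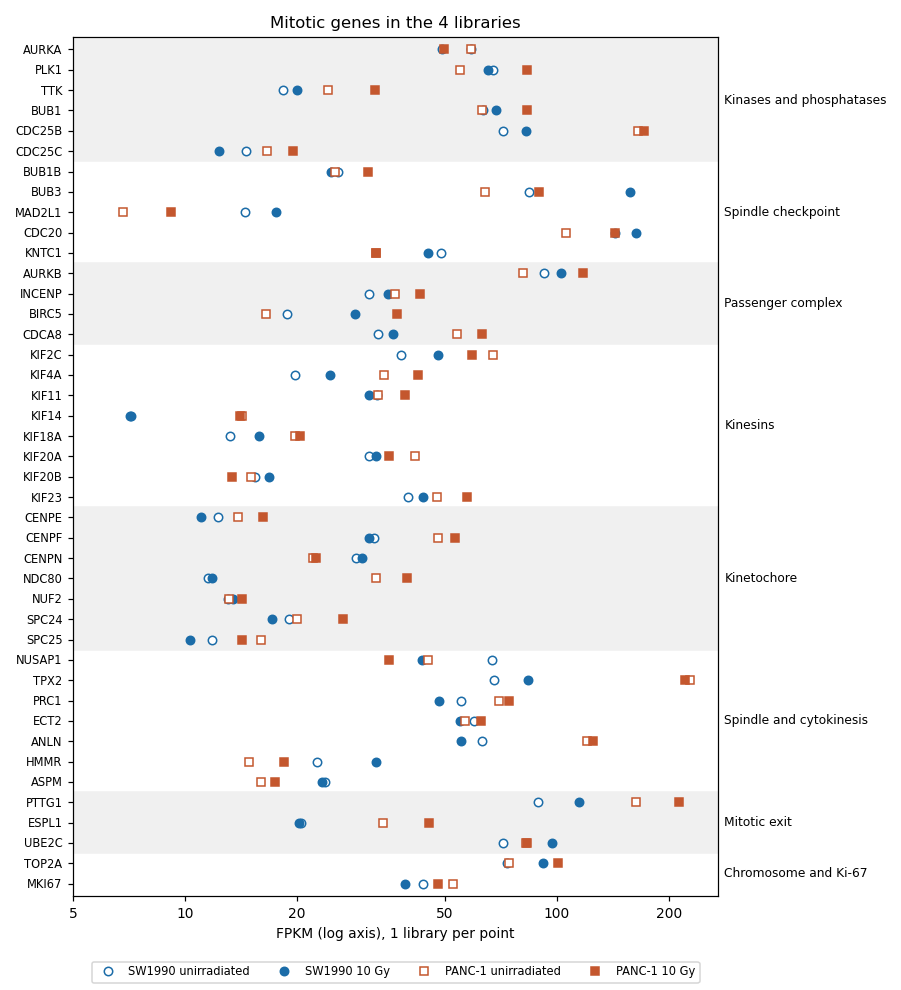
FPKM of the 42 genes (log axis) by role group, 1 point for each library, with circles for SW1990 and squares for PANC-1 and filled symbols for 10 Gy. Values run from 6.79 to 228 FPKM, and TPX2, CDC25B, ANLN, NDC80 and KIF14 are cases in which both PANC-1 points lie to the right of both SW1990 points.

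The first comparison asks whether these genes changed after 10 Gy in each line. No member of the group passed the threshold in either line. A gene was called when the exact binomial test of the reads of the 2 libraries gave an adjusted p below 0.001 and the fold change was above 2. By this rule 4.2% of 15731 genes tested were called in SW1990 cells, 355 higher (2.26%) and 306 lower (1.95%). In PANC-1 cells 4.77% of 15159 were called, 367 higher (2.42%) and 356 lower (2.35%), or 462 and 282 with scaling by total counts. The calls on members were 0 of 42 in SW1990 and 0 of 42 in PANC-1. The test compares libraries and not conditions, since each condition had 1 library, and its intervals cover counting error only. Without a fold threshold, 30 and 34 of the 42 genes had an unadjusted p below 0.05 in SW1990 and PANC-1 cells, as had 7746 and 8646 of all genes tested. All genes were not matched to the 42 by abundance, on which such a p depends.

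The differences between the libraries of a line were small. In SW1990 cells the log2 fold changes of the 42 genes ran from −0.40 (NUSAP1) to 0.55 (KIF2C), with a median of 0.08 against −0.01 over all genes tested. In PANC-1 cells they ran from −0.66 (NUSAP1) to 0.74 (BIRC5), with a median of 0.11 against −0.02. In SW1990 cells 29 of 42 were higher after radiation, and in PANC-1 cells 26 of 42, against 49.3% and 48.3% of all genes tested. In PANC-1 cells these figures were 31 of 42 and 57.8% with total counts and 32 of 42 and 56.6% by FPKM, with the median of all genes at 0.07 in each. In SW1990 cells they were 27 of 42 and 45.9% with total counts and 26 of 42 and 47.0% by FPKM. With total counts the members' median in SW1990 cells was 0.050 and that of all genes −0.036. The 95% counting interval lay above 0 for 24 genes and below 0 for 6 in SW1990 cells, where 25.2% and 23.5% of all genes tested did so. In PANC-1 cells it lay above 0 for 21 and below 0 for 13, where the shares were 26.0% and 30.5%. A difference passes counting error more readily with more reads, and the 42 genes were more abundant than most genes. These shares are not matched for abundance. Lowering the fold threshold to 1.5 called 0 members in SW1990 cells (9.36% of all genes tested, 5.21% higher and 4.15% lower) and BIRC5, higher, and NUSAP1, lower, in PANC-1 cells (11.8% of all genes tested, 5.84% higher and 6.0% lower).

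**Figure D2:**
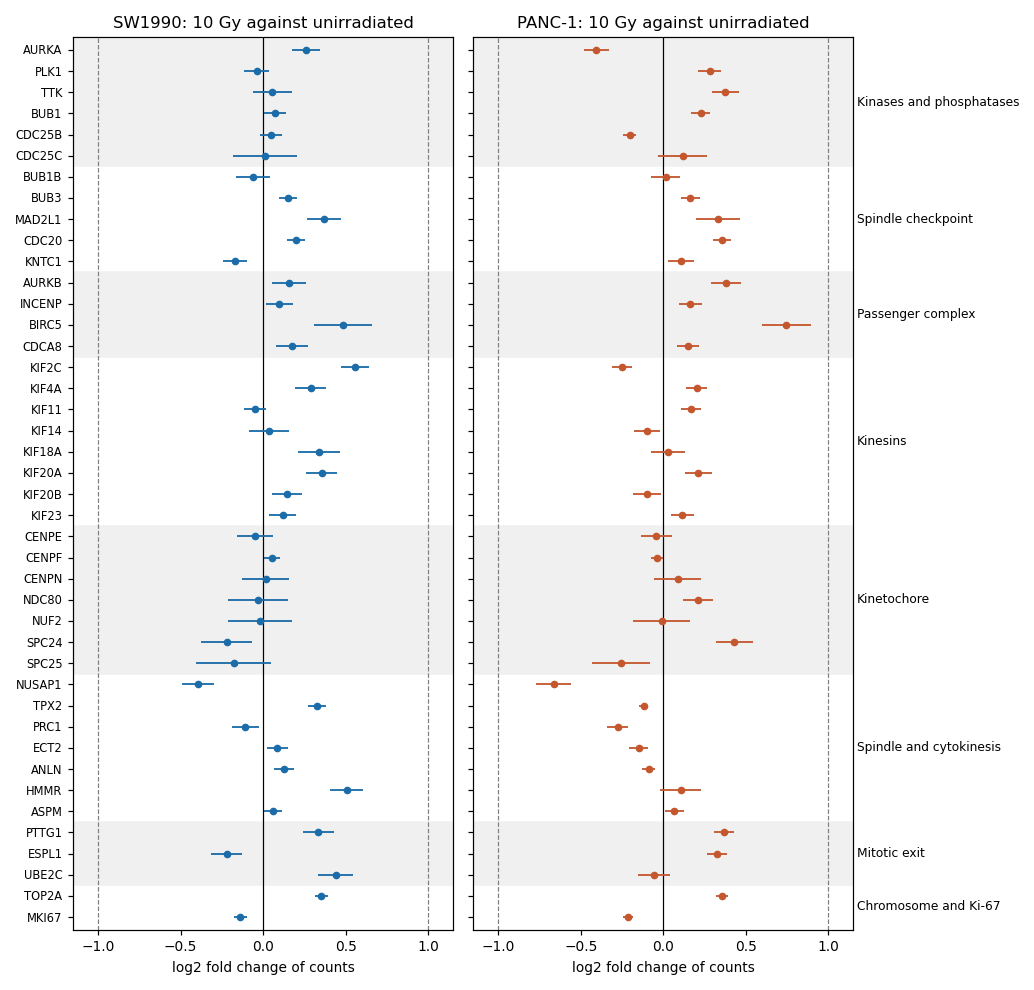
Log2 fold change of counts after 10 Gy for each of the 42 genes, SW1990 on the left and PANC-1 on the right. Bars are 95% counting intervals and dashed lines mark a 2-fold change, which no gene reaches. The extremes are KIF2C at 0.55 in SW1990 and BIRC5 at 0.74 and NUSAP1 at −0.66 in PANC-1.

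Among the kinases, TTK and AURKA differed in pattern. TTK (chr6:80003887-80042527), the checkpoint kinase also called MPS1, was at 18.3, 20.05, 24.3 and 32.5 FPKM. Its log2 fold change was 0.05 (95% counting interval −0.06 to 0.17) in SW1990 and 0.38 (0.29 to 0.46) in PANC-1 cells, by counts the largest mean of the group over both lines. AURKA, the spindle pole kinase, was at 49.1, 58.7, 58.9 and 49.6 FPKM, higher after radiation in SW1990 (0.26) and lower in PANC-1 (−0.41). CDC25B (chr20:3786772-3806121), a phosphatase that activates CDK1, was at 71.6, 82.7, 166 and 171 FPKM, with a log2 fold change of counts of 0.05 in SW1990 and −0.20 in PANC-1 cells. The CDC25B value in PANC-1 cells was 0.05 by FPKM, so its direction rests on the scale. PLK1 was at −0.04 and 0.28 and BUB1 at 0.07 and 0.23.

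In SW1990 cells 3 of 5 checkpoint genes were higher after radiation. In PANC-1 cells all 5 were by counts, and 4 of 5 by FPKM, where KNTC1 was at −0.0050. MAD2L1 (chr4:120055608-120067074), which encodes the MAD2 protein that binds CDC20, had the largest mean of the group by counts. It was at 14.5, 17.6, 6.79 and 9.15 FPKM, and its log2 fold change was 0.37 (0.27 to 0.47) in SW1990 and 0.33 (0.20 to 0.46) in PANC-1 cells. CDC20 had 0.20 (0.14 to 0.26) and 0.36 (0.30 to 0.41). KNTC1 (chr12:122527246-122626396), part of the complex that brings dynein to kinetochores, was at 48.8, 44.9, 32.6 and 32.5 FPKM, and had the smallest mean of the group, with −0.17 in SW1990 and 0.11 in PANC-1 cells. BUB3 showed a gap between the 2 deposited scales in both lines. In SW1990 cells its FPKM was 84.3 and 157, a log2 fold change of 0.90. Its counts there were 4973 and 5541, a log2 fold change of 0.15. In PANC-1 cells the log2 fold change was 0.48 by FPKM and 0.16 by counts. The cause of this gap was not tested.

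All 4 genes of the passenger complex were higher after radiation in both lines, also with total counts and by FPKM. Each lay beyond counting error, but INCENP in SW1990 cells did not with total counts. Its lower bound was 0.015 there, and total counts moved the SW1990 values by −0.029. BIRC5 (chr17:78214186-78225636), which encodes survivin, had the largest difference. It had 470 and 660 counts in SW1990 cells and 618 and 945 in PANC-1 cells, and its FPKM values were 18.7, 28.7, 16.5 and 37.1. Both irradiated libraries were thus above both unirradiated ones. Other members, such as TOP2A, CDC20, AURKB, BUB1, BUB3 and UBE2C, had the same order by FPKM. Its share over all genes was not counted. The difference of BIRC5 was 1.40-fold in SW1990 cells (log2 0.48, 95% counting interval 0.31 to 0.66) and 1.67-fold in PANC-1 cells (log2 0.74, 0.60 to 0.89). By FPKM the PANC-1 value was 1.16 on the log2 scale and passed the 2-fold threshold, the only member called at that fold under any alternative tried (639 of all 15159 genes passed on that scale). INCENP (chr11:62123973-62153163), the scaffold of the complex, had the smallest mean, at 31.2, 35.2, 36.7 and 42.8 FPKM, with log2 fold changes of 0.10 and 0.16. AURKB, the kinase, was at 0.16 and 0.38, and CDCA8, which encodes borealin, at 0.17 and 0.15.

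Of the 8 kinesins, 7 were higher after radiation in SW1990 cells, whereas 5 were in PANC-1 cells. KIF2C, which takes microtubules apart at their ends, had 1981 and 2924 counts in SW1990 cells and 5067 and 3885 in PANC-1 cells. Its log2 fold changes, 0.55 (0.47 to 0.64) and −0.25 (−0.31 to −0.19), pointed in opposite directions. KIF20A (chr5:138178719-138187715), which carries the passenger complex to the central spindle, had the largest mean of the kinesins by counts, with 0.35 (0.26 to 0.45) and 0.21 (0.13 to 0.29), but its FPKM values, 31.2, 32.7, 41.4 and 35.4, gave −0.22 in PANC-1 cells. Exons of KIF20A overlap those of BRD8 and CDC23 on the opposite strand over 3.34% and 1.72% of their length. KIF14 had the smallest mean, with 0.03 and −0.10. KIF4A, a chromosome-bound motor, was at 0.29 and 0.20 and KIF23, a part of centralspindlin, at 0.12 and 0.12.

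The kinetochore group had medians of −0.03 in SW1990 and −0.01 in PANC-1 cells, which were −0.062 and 0.079 with total counts and −0.044 and 0.16 by FPKM. With DESeq2 size factors the SW1990 median turned to 0.0024, with 4 of 7 genes higher. NDC80, NUF2, SPC24 and SPC25 encode the 4 subunits of the complex that grips microtubules. SPC24 (chr19:11131520-11155808) was at 19.0, 17.1, 19.995 and 26.5 FPKM, with a log2 fold change of −0.22 (−0.37 to −0.07) in SW1990 and 0.43 (0.32 to 0.54) in PANC-1 cells. SPC25 (chr2:168834132-168913371), its binding partner, was lower in both lines, with −0.18 (−0.41 to 0.05) and −0.26 (−0.43 to −0.08). NDC80 was at −0.03 and 0.21 and NUF2 at −0.02 and −0.01. The outer kinetochore genes CENPE (−0.05 and −0.04) and CENPF (0.05 and −0.04) were near 0 by counts. The signs of these small values rest on the scale. In PANC-1 cells NUF2, CENPE and CENPF turned to 0.079, 0.048 and 0.049 with total counts and to 0.12, 0.22 and 0.16 by FPKM, and in SW1990 cells NDC80, NUF2 and CENPF turned to 0.043, 0.042 and −0.044 by FPKM. The subunits of 1 complex thus did not share a direction in PANC-1 cells.

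The spindle and cytokinesis group split between the lines, with 5 of 7 genes higher in SW1990 cells and 5 of 7 lower in PANC-1 cells by counts. By FPKM these figures were 2 higher in SW1990 and 2 lower in PANC-1, and the genes whose sign turned were ECT2, ANLN, ASPM and PRC1. NUSAP1 (chr15:41332694-41381050), which bundles spindle microtubules, was the lowest of the 42 genes in both lines. It had 1980 and 1512 counts in SW1990 cells and 1997 and 1152 in PANC-1 cells, at 66.8, 43.4, 45.1 and 35.4 FPKM. Both irradiated libraries were below both unirradiated ones, an order whose share over all genes was not counted. The log2 fold changes of NUSAP1 were −0.40 (−0.49 to −0.30) and −0.66 (−0.77 to −0.56). By FPKM these were −0.62 and −0.35, so that the line with the larger difference turned and the PANC-1 value lay within 1.5-fold. HMMR (chr5:163460203-163491945), a spindle assembly factor, was at 22.7, 32.6, 14.9 and 18.4 FPKM, with 0.51 (0.41 to 0.61) in SW1990 and 0.11 (−0.02 to 0.23) in PANC-1 cells.

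Of the exit factors, PTTG1 was higher in both lines, with 0.33 (0.24 to 0.43) and 0.37 (0.31 to 0.43). ESPL1 (chr12:53268299-53293643), which encodes separase, the protease that securin inhibits, was at 20.5, 20.3, 34.0 and 45.4 FPKM, with −0.22 (−0.32 to −0.13) in SW1990 and 0.33 (0.27 to 0.39) in PANC-1 cells by counts. By FPKM the SW1990 value of ESPL1 was −0.014. UBE2C, the ubiquitin-conjugating enzyme of the anaphase-promoting complex, was at 0.44 in SW1990 and −0.06 in PANC-1 cells, where it turned to 0.034 with total counts and to 0.011 by FPKM.

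TOP2A and MKI67, both used as markers of proliferation, differed in direction. TOP2A (chr17:40388516-40417950), the topoisomerase that untangles sister chromatids, was at 73.4, 91.8, 74.2 and 101 FPKM, and its log2 fold change was 0.35 (0.31 to 0.39) in SW1990 and 0.35 (0.32 to 0.39) in PANC-1 cells. MKI67 (chr10:128096659-128126385), which encodes the chromosome coat protein Ki-67, was at 43.6, 39.1, 52.4 and 47.9 FPKM, with −0.14 (−0.18 to −0.10) and −0.21 (−0.25 to −0.18). Both kept these directions with total counts and by FPKM.

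Across the lines, 19 of the 42 genes were higher in both irradiated libraries, 6 were lower in both and 17 went in opposite directions. Of 13228 genes tested in both lines, 25.6% were higher in both, 29.3% lower in both and 45.2% opposite. Counting only differences beyond counting error in each line, 14 of 42 were higher in both (9.71% of all), 3 were lower in both (10.6%) and 10 were opposite (13.3%). The shares of all genes are not matched for abundance, on which passing counting error depends. The 3 lower in both were NUSAP1, PRC1 and MKI67, of which PRC1 was at 0.09 in PANC-1 cells by FPKM. The 10 opposite genes were AURKA, KNTC1, KIF2C, KIF20B, CENPF, SPC24, TPX2, ECT2, ANLN and ESPL1. With total counts ANLN and CENPF were no longer opposite, and by FPKM KNTC1 was not. Total counts moved all values by −0.029 in SW1990 and 0.090 in PANC-1 cells. These shifts exceed the distance from 0 of the interval of ECT2 in SW1990 (lower bound 0.021) and of KIF20B in PANC-1 cells (upper bound −0.014). With total counts ECT2 and KIF20B were thus opposite, but not beyond counting error in both lines.

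**Figure D3:**
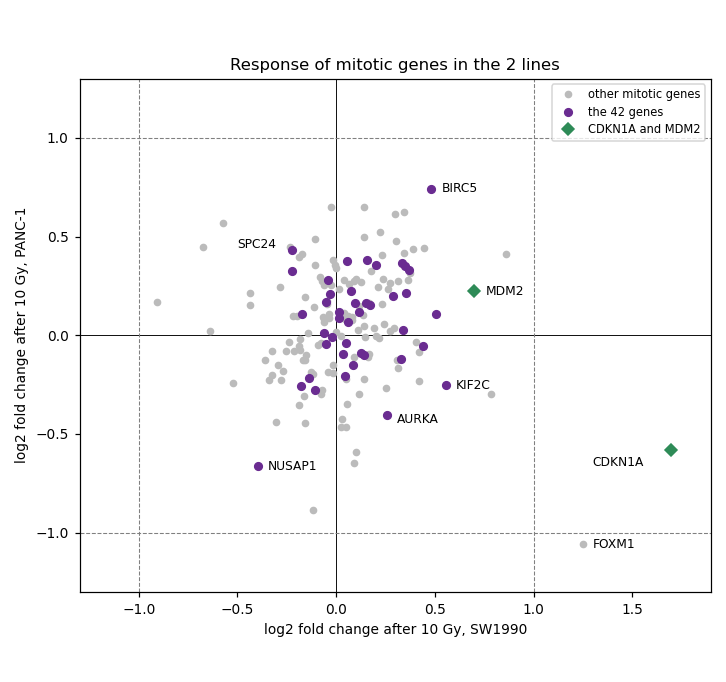
Log2 fold change of counts after 10 Gy in SW1990 (horizontal axis) and PANC-1 (vertical axis), 1 point for each gene. The 42 genes lie inside the dashed 2-fold lines, BIRC5 at 0.48 and 0.74 and NUSAP1 at −0.40 and −0.66, while FOXM1, one of the other mitotic genes, lies at 1.25 and −1.06.

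Whether radiation had an effect shared by both lines was asked in a model of the 4 libraries that also held a term for the line. The edgeR quasi-likelihood test called 0.0% of 18180 genes at an adjusted p below 0.05 and 0 of the 42 genes. At an unadjusted p below 0.05 there were 833 genes (4.58%), among them 4 of the 42, namely BIRC5 (log2 fold change 0.63), NUSAP1 (−0.51), PTTG1 (0.37) and TOP2A (0.37). Their adjusted p was 0.936 in each case, with the irradiated library above its partner for BIRC5, PTTG1 and TOP2A, and below it for NUSAP1, in 2 of 2 lines. A low p in this fit needs similar changes in both lines. This agreement thus follows from how the 4 genes were picked and adds no support. DESeq2 called 39 genes (0.538% of 7254 with an adjusted p) and again 0 members, of which 40 had an adjusted p. The fit had 1 residual degree of freedom.

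The other comparison the design allows is between the lines, with both libraries of a line on each side. The unirradiated and the irradiated library of a line stood in for replicates, with 1 residual degree of freedom. The adjusted p values between the lines thus do not measure the spread between cultures of a line. Most of the 42 genes had less RNA in SW1990 than in PANC-1 cells, relative to all genes. Of the 42, 34 were lower in SW1990 cells, with a median log2 difference (SW1990 over PANC-1) of −0.34 against a median of −0.0026 over all 18180 genes. The quasi-likelihood test called 43.6% of all genes at an adjusted p below 0.05, 21.4% higher in SW1990 cells and 22.2% lower. Of the 42 it called 2 higher and 15 lower. The share called, 17 of 42 or 40.5%, was thus near that of all genes, and the split of the calls was toward PANC-1. With total counts, which moved the median of all genes to 0.15, the members' median was −0.19, 31 were lower, and 3 were called higher and 12 lower, where 4536 of all 18180 genes were called higher and 3439 (18.9%) lower.

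NDC80 (chr18:2571511-2616635) had the largest difference by counts. It was at 11.5, 11.8, 32.6 and 39.5 FPKM, and in the fit of counts it was 3.44-fold lower in SW1990 cells (log2 −1.78, edgeR adjusted p = 0.0023). TPX2 (chr20:31739271-31801805), which activates Aurora A on spindle microtubules, was at 67.6, 83.7, 228 and 221 FPKM. In the fit of counts it was 3.37-fold lower in SW1990 cells (log2 −1.75, edgeR adjusted p = 0.0029). Over all settings tried, the log2 difference ran from −1.79 to −1.54 for NDC80 and from −1.76 to −1.56 for TPX2. CDC25B followed with a log2 difference of −1.31 (edgeR adjusted p = 0.0038). For each of these genes, both SW1990 values lay below both PANC-1 values. The others called lower in SW1990 cells were ANLN (−1.24), ESPL1 (−1.16), KIF14 (−1.12), PTTG1 (−1.06), KIF4A (−1.02), CDCA8 (−0.92), TTK (−0.85), CENPF (−0.79), SPC24 (−0.75), CDC25C (−0.62), MKI67 (−0.56) and PRC1 (−0.54). Of the 17 calls in either direction, 12 were kept under every alternative tried, and those of CDC25C, SPC24, PRC1, MKI67 and HMMR were lost under at least 1.

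MAD2L1 and HMMR went the other way. MAD2L1 was 1.80-fold higher in SW1990 cells (log2 0.85, edgeR adjusted p = 0.011) and HMMR 1.63-fold higher (log2 0.70, edgeR adjusted p = 0.031). The third highest by counts was KNTC1, at 0.37, which did not pass the threshold (edgeR adjusted p = 0.104) but was called by limma on FPKM. By role, all 6 genes of the kinase group, all 4 passenger genes, all 8 kinesins and all 3 exit factors were lower in SW1990 cells, whereas 4 of 5 checkpoint genes were higher; AURKA, PLK1 and KIF20B turned with total counts, and KIF20B and UBE2C by FPKM. The median was −1.06 for the exit factors (−0.91 with total counts and −0.89 by FPKM), −0.61 for the kinetochore (−0.46 and −0.36) and 0.13 for the checkpoint (0.28 and 0.52). By FPKM, the 2 values of a line did not overlap those of the other line for 29 of the 42 genes, 23 with SW1990 lower (32.2% of all genes) and 6 with SW1990 higher (43.4%). For the other 13, among them BIRC5, TOP2A, AURKA and PLK1, the lines overlapped.

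**Figure D4:**
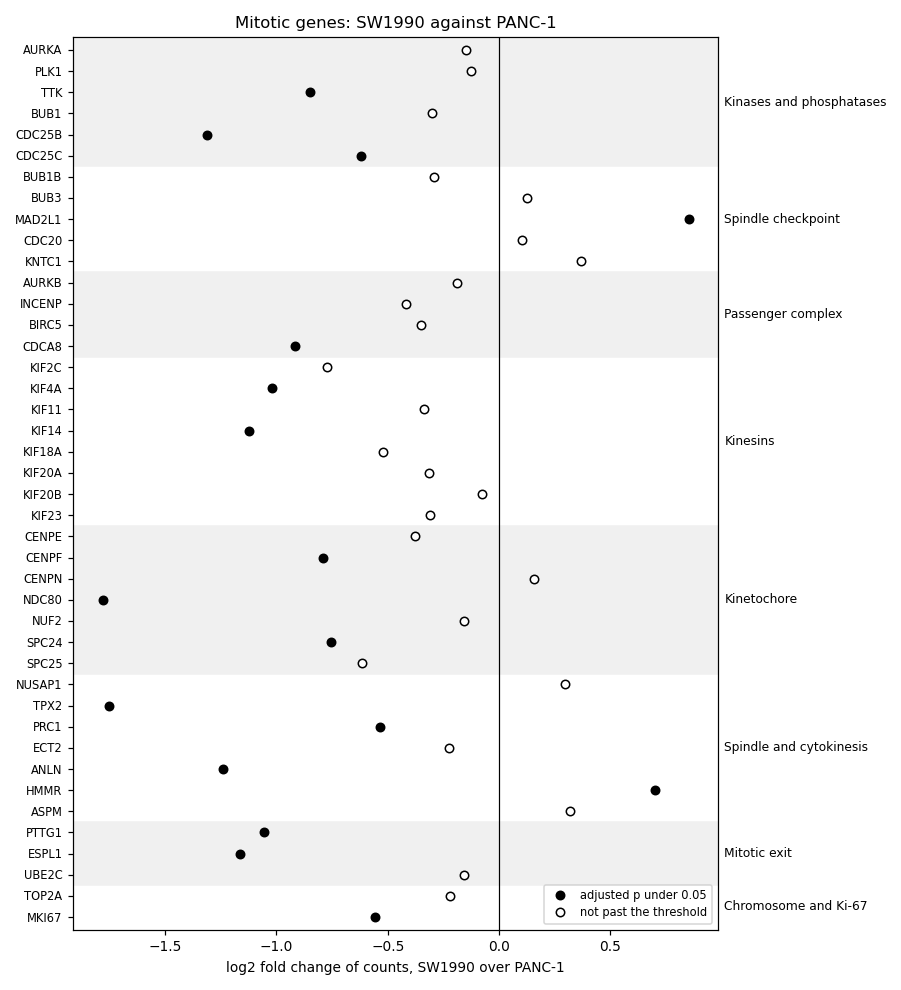
Log2 fold change between the lines (SW1990 over PANC-1) for the 42 genes from the fit of 4 libraries, with filled points at an adjusted p under 0.05. Of the filled points, 15 lie left of 0, from NDC80 at −1.78 to PRC1 at −0.54, and 2 lie right of it, MAD2L1 at 0.85 and HMMR at 0.70.

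A further 128 genes of mitosis, listed by function, were expressed and tested in both lines. Their median log2 fold change after radiation was 0.01 in SW1990 cells (64 higher, 64 lower) and 0.06 in PANC-1 cells (73 higher, 55 lower). Between the lines their median was −0.01, with 63 higher in SW1990 cells and 65 lower, and 21 and 18 called. By counts, 1 of the 128 was called after radiation in each line, and it was FOXM1 in both. By FPKM FOXM1 lay within 2-fold in both lines, and other genes lay past it. These were CENPU (−1.01) and SMC1A (−1.03) in SW1990 cells and HJURP (−1.11) in PANC-1 cells. For SMC1A the adjusted p of the reads was not below 0.001.

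FOXM1 (chr12:2857681-2877155) encodes a transcription factor that activates many G2 and mitosis genes. Its counts were 1596 and 3816 in SW1990 cells without and with radiation and 2887 and 1266 in PANC-1 cells, at 37.5, 67.5, 38.2 and 24.4 FPKM. It rose 2.38-fold between the libraries of SW1990 (log2 1.25, 1.17 to 1.34) and fell in PANC-1 (log2 −1.06, −1.16 to −0.96). By FPKM the values were 0.85 and −0.64, in the same directions but within 2-fold, and with total counts the PANC-1 value was −0.97. Exons of FOXM1 overlap those of ITFG2 on the opposite strand over 15.9% of their length, and whether reads were counted by strand is not given in the sources used here. By counts the widest split among the 42 genes was that of KIF2C, with a gap of 0.81 between its 2 log2 fold changes against 2.31 for FOXM1. By FPKM the split of PLK1 (−0.04 and 0.59) was wider than that of KIF2C (0.33 and −0.19).

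CDK1, the kinase that starts mitosis, and its cyclins stayed inside the 2-fold limits. CDK1 was at 47.9, 57.04, 33.6 and 51.8 FPKM (log2 fold changes of counts 0.22 and 0.52). CCNB1 was at 98.0, 87.4, 101 and 150 FPKM, with 0.24 and 0.28 by counts but −0.16 in SW1990 cells by FPKM. CCNB2 was at 38.7, 43.4, 46.2 and 39.4 FPKM, with 0.25 and −0.27. Of the 24 listed genes of mitotic entry, FOXM1 among them, 18 were higher by counts after radiation in SW1990 and 13 in PANC-1 cells. The other groups were kinetochore (17 and 22 of 34), spindle (11 and 19 of 27) and cytokinesis (8 and 5 of 9). Of the anaphase-promoting complex 6 and 5 of 15 were higher, and of cohesin and condensin 4 and 9 of 19. Among all genes tested the shares were 49.3% and 48.3%. In SW1990 cells these 4 cohesin and condensin genes stayed higher by FPKM, while others, such as STAG2 (0.17) and WAPL (0.21), turned higher.

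As a reference for the response to radiation, CDKN1A and MDM2, targets of p53, were examined in the same libraries. CDKN1A, which encodes the cyclin-dependent kinase inhibitor p21, had 1229 and 4002 counts in SW1990 cells and 1282 and 782 in PANC-1 cells. It rose 3.24-fold between the SW1990 libraries (log2 1.70, 1.60 to 1.79), past the threshold, and was at −0.58 (−0.71 to −0.45) in PANC-1 cells, within it. MDM2 was at 80.7, 109, 27.4 and 40.7 FPKM. Its log2 fold changes were 0.70 and 0.22 by counts and 0.43 and 0.57 by FPKM, not called in either line. FOXM1 and CDKN1A were thus each higher after radiation in SW1990 cells and lower in PANC-1 cells, while by counts every one of the 42 genes stayed within the 2-fold limits in both. By FPKM FOXM1 was within them as well, and BIRC5 in PANC-1 cells was outside. By counts only 4.2% of all genes tested in SW1990 and 4.77% in PANC-1 cells were called. The 0 of 42 is thus near the share of all genes.

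Overlaps and near copies touched few of the 42 genes. Exons of 9 overlapped those of an expressed gene on the opposite strand and 0 on the same strand, the most being CENPN with CMC2 (12.8% of its exonic bases) and CDC25C with FAM53C (8.78%). KIF4B, a near copy of KIF4A, had 2 to 16 counts and PTTG2, a near copy of PTTG1, 0 to 14 counts.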

How the data were processed

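Measured were 4 transcriptomes, deposited as 1 table whose 59263 rows give, per library, a count of reads and an FPKM. According to the study's methods and the submitters' processing notes, reads were trimmed with Trimmomatic 0.36, aligned to GRCh38 with HISAT2 2.0 and quantified with StringTie 1.3.3b. The authors scaled the FPKM values by transcript length and depth. The deposited counts are unnormalized whole numbers, and their counting tool is not given in the sources used here. Rows without a gene identifier (1089 rows, 0.453% to 0.635% of the counts) entered neither library sizes nor tests. The labels describe rRNA-depleted total RNA and the kit named there is an mRNA kit.

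Within a line, the counts of both libraries were compared with an exact conditional binomial test (two-sided) on TMM-scaled totals of the pair, with Benjamini-Hochberg adjustment over genes that reached an FPKM of 1 in either library. A count of 0 was set to 0.01 for the fold change. Calls needed an adjusted p below 0.001 and a fold change above 2. The 95% counting intervals are exact Clopper-Pearson intervals. Radiation over both lines and the difference between the lines came from edgeR 4.0.16 (quasi-likelihood, TMM, filterByExpr, line and radiation as terms, adjusted p below 0.05) in R 4.3.3, with DESeq2 1.42.0 and limma 3.58.1 as alternatives. Tested on simulated data in which 200 genes differed by 4-fold, these fits recovered 191 of 200 in SW1990 (among 15731 genes, 0 false calls), 194 in PANC-1 (among 15159, 0 false), 199 for radiation over both lines (among 18180, 7 false) and 197 for the difference between the lines (12 false). The simulated reads within a line held counting error alone, which the binomial test assumes. The 0 false calls there thus do not cover variation between cultures. A 4-fold difference also exceeds that of any member within a line by counts (at most 1.67-fold, for BIRC5 in PANC-1 cells).

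The 42 genes, the role groups and the list of 128 other genes of mitosis were chosen with earlier results of these data known. By the rule for named genes, values per library are given for every member called after radiation in a line (there were 0), for the members with the largest and smallest mean log2 fold change of each role group, for the 3 most and 3 least abundant, for the 3 with the largest difference between the lines in each direction, for other mitotic genes called and CCNB1, CCNB2 and CDK1, and for CDKN1A and MDM2. Members called between the lines but outside this rule are given by their log2 difference alone. AURKA, KIF2C, BUB3 and further members named with a value were singled out after their values were seen.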

Additional observations from a re-analysis of the deposited data

Results flagged for a closer look

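Among the 42 genes and FOXM1, CCNB1, CCNB2, CDK1, CDKN1A and MDM2, 13 moved in opposite directions in the lines by counts, each beyond counting error. Of all 128 other mitotic genes, FOXM1 and CCNB2 among them, 18 (14.1%) did so. The share was 13.3% of all genes tested in both lines, with no matching for abundance. Among those not listed below, PSRC1 (−0.68 in SW1990 and 0.45 in PANC-1 cells) had a wider gap than KIF2C. With 1 library per group the difference between the lines in response was not tested, and each value here is the log2 fold change in SW1990 minus that in PANC-1. The widest gaps were those of FOXM1 (2.31) and CDKN1A (2.28). Of the 42 genes 10 (23.8%) were among the 13. Those with the higher value in SW1990 cells were KIF2C (0.81), AURKA (0.66), TPX2 (0.45), KIF20B (0.24), ECT2 (0.23), ANLN (0.21) and CENPF (0.092), together with CCNB2 (0.52) outside the 42. Those with the higher value in PANC-1 cells were SPC24 (−0.65), ESPL1 (−0.55) and KNTC1 (−0.28). With total counts ANLN and CENPF turned in PANC-1 cells, to 0.00090 and 0.049, and so shared a direction in both lines. ECT2 in SW1990 cells and KIF20B in PANC-1 cells kept their direction with total counts but no longer lay beyond counting error. By FPKM, ANLN, CENPF and ECT2 turned in both lines and KNTC1 in PANC-1 cells, where it was at −0.0050. No group has 4 libraries, so no search for outlying libraries was made.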

How the results depend on the processing

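No replicate could be left out, because each group had 1 library and a fit of 3 libraries has no residual degrees of freedom. With no replicate block (cell line left out of the fit of radiation), 0 genes and 0 members were called, as with it. The labels give no replicate numbers. No member was called after radiation in SW1990 cells under any alternative. In PANC-1 cells 2 members were called at a fold above 1.5 and 1 by FPKM at either pseudocount (0.1, with 639 genes called, or 1). In SW1990 and PANC-1 cells, the genes called numbered 305 and 319 with an FPKM of at least 5, 1472 and 1794 at a fold above 1.5, 99 and 103 with an assumed coefficient of variation of 0.2, 15 and 10 with one of 0.4, and 338 and 350 by FPKM with a pseudocount of 1. For radiation over both lines DESeq2 called 39 genes and limma on FPKM with a pseudocount of 1 called 1, with 0 members in each.

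The members' median in PANC-1 cells was 0.20 with total counts and 0.22 and 0.21 by FPKM with pseudocounts of 0.1 and 1, where the median of all genes moved too, from −0.02 to 0.073 with total counts and 0.065 by FPKM (pseudocount 0.1). The members' median difference between the lines was −0.19 with total counts. With total counts in PANC-1 cells the medians were 0.26 (kinases), 0.25 (checkpoint), 0.36 (passenger complex), 0.16 (kinesins), 0.079 (kinetochore, reversed), −0.029 (spindle and cytokinesis), 0.42 (exit), 0.16 (chromosome) and 0.15 (other mitotic genes, of which 0 were called), and the median of the other mitotic genes in SW1990 cells turned to −0.023. By FPKM in PANC-1 cells they were 0.32 (kinases), 0.42 (checkpoint), 0.38 (passenger complex), 0.015 (kinesins, 4 of 8 higher), 0.16 (kinetochore, reversed), 0.094 (spindle and cytokinesis, reversed), 0.15 (chromosome) and 0.15 (other mitotic genes), and in SW1990 cells spindle and cytokinesis turned to −0.13, with 0.13 for the kinases and 0.13 for the kinesins. With total counts in SW1990 cells the kinases were at 0.021, the kinetochore at −0.062 and spindle and cytokinesis at 0.056. By FPKM with pseudocounts of 0.1 and 1, the reversed values were 0.043 and 0.040 for NDC80 and −0.16 and −0.16 for CCNB1 in SW1990 cells, and 0.048 and 0.047 for CDC25B, −0.0050 and −0.0048 for KNTC1 and −0.22 and −0.22 for KIF20A in PANC-1 cells. NDC80 was at 0.0024 in SW1990 cells with DESeq2 size factors, as was the kinetochore median. The causes were not tested.

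Of the 17 members called between the lines, 14 were kept with total counts (CDC25C, SPC24 and PRC1 lost, ASPM gained, 7975 genes called), 12 without a filter (these 3, HMMR and MKI67 lost, 6105 genes), 15 with DESeq2 (CDC25C and SPC24 lost, KIF2C and ASPM gained, 6124 genes), 14 by FPKM at either pseudocount (CDC25C, SPC24 and MKI67 lost, BUB3, KNTC1 and KIF2C gained, 8730 and 8823 genes) and 17 with radiation left out of the model (KIF2C and SPC25 gained, 8392 genes). The common coefficient of variation in the fit of 4 libraries was 0.218, and depth covers counting error only.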
